A study of Mus musculus with 5 samples.

Results

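The unfolded protein response and the amino acid response were followed in mouse neural stem and progenitor cell (NSPC) cultures through 39 genes chosen by symbol for their known part in either response. All 39 were listed among the 12588 genes of the deposited table. They were divided into an Atf4 arm of 20 genes, a chaperone arm of 15 genes and 4 genes for the sensors and Xbp1. Polyadenylated RNA came from untreated proliferating NSPCs of C57BL/6J mice, which received EGF (20 ng/ml) together with FGF-2 (20 ng/ml). The WT label (p75NTR+/+ littermates) covers 2 libraries, numbered 1 and 4, and the p75NTR-/- label covers 3, numbered 1, 2 and 4. The labels give E12.5 embryos as the source and the study's methods describe adult subventricular zone cells, and both are stated here because the table does not decide between them. The deletion of p75NTR, the low-affinity neurotrophin receptor, was constitutive, so every cell of such mice carries it. The labels do not say which animals or culture days gave each library, so the p-values measure the spread between these libraries, part of which may be technical.

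Ngfr, which encodes p75NTR, went against the labels. Its normalized counts were 0.98 and 2.08 under the WT label, and 9.89, 141 and 251 under the p75NTR-/- label, in the order of the numbers. The listed transcript spans the whole gene, so its total does not isolate the deleted part. That limit does not address the values under the WT label, which rest on 1 and 2 counts. The study reports that its cultured adult NSPCs express p75NTR. Whether the labels were exchanged was not tested, and all groups are named by their labels below. The recovered totals lay between 11688211 and 14452396 counts per library, and a count of 0 allows up to 3 counts, or 2.94 to 3.60 normalized counts, for counting error only. Defining markers of NSPCs were present in every library, and all 11 were listed. Nes ranged from 8704 in replicate 1 labelled WT to 23123 in replicate 1 labelled p75NTR-/-, and Fabp7 from 35613 to 39744 normalized counts. Some of the 11 moved with the libraries. Vim had 20556 and 40938 under the WT label and 23981, 23753 and 44562 under the p75NTR-/- label. Hes5 had 546 and 24.97, and 43.5, 222 and 30.6, and Sox2 had 1517 and 1046, and 714, 1165 and 1240. In the comparison of the labels below (limma), 8 of the 11 were lower under the p75NTR-/- label, against 6207 of all 12588 genes. Nes, Vim and Fabp7 were higher. The median log2 fold change of the 11 was -0.29. Of the marker lists for other cells, 1 of 9 microglial genes (Cd68), 1 of 7 endothelial genes and 3 of 7 fibroblast genes were listed, against 7 of 7 astrocyte genes. Pdgfra, among these fibroblast genes, is also in the list for the oligodendrocyte lineage.

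When unfolded proteins gather in the endoplasmic reticulum (ER), the sensors PERK (Eif2ak3), IRE1 (Ern1) and ATF6 are released from the chaperone BiP (Hspa5). PERK, like the kinase that senses missing amino acids, phosphorylates eIF2alpha, which slows translation in general and favours translation of ATF4, so the Atf4 arm answers to amino acid shortage as well as to ER stress. ATF4 raises genes for amino acid synthesis, transport and tRNA charging, and together with CHOP (Ddit3) genes that end the response. ATF6 and spliced XBP1 raise the ER chaperones and disulfide isomerases. Rapidly dividing progenitors depend on both, since they make much protein and use serine and one-carbon units for nucleotides.

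Short promoter stretches are shown because the elements read by the arms differ. The windows of RefSeq's promoter table (build GRCm38.p6, 250 bases before to 50 after each start) were found for 34 of the 39 members, and not for Slc7a5, Hyou1, Atf6, Manf and Wars. On both strands, the C/EBP-ATF response element (CARE, TGATGNAA) was searched for the Atf4 arm and the ER stress response element (ERSE, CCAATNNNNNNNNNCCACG) with its shorter form (ERSE-II, ATTGG and CCACG parted by 1 base) for the chaperone arm. The CARE letters stood in the windows of 6 members and in 3.97% of all 32851 promoters. These were 5 of the Atf4 arm (Asns, Chac1, Gars, Slc7a11 and Trib3) and 1 of the chaperone arm (Herpud1). In Trib3 the letters lay after the start, at positions 15 to 22, and its stretch is not shown. The ERSE letters stood in 7 members, all of the chaperone arm, and in 0.119% of all promoters. ERSE-II stood in Dnajb11 and Herpud1 and in 0.0365% of all promoters. A match describes letters only and is no shown binding site.

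In the following stretches, written 5′ to 3′ on the gene's strand, capitals mark the CARE letters on either strand, and in Herpud1 the first run is CARE and the second ERSE-II.
Asns (chr6:7693210-7693252, minus strand): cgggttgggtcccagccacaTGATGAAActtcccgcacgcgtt
Chac1 (chr2:119351029-119351076, plus strand): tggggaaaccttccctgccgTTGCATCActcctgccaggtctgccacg
Gars (chr6:55037951-55037998, plus strand): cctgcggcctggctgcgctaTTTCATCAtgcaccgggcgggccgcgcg
Slc7a11 (chr3:50443633-50443699, minus strand): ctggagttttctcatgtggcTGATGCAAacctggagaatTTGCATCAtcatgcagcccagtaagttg
Herpud1 (chr8:94386297-94386407, plus strand): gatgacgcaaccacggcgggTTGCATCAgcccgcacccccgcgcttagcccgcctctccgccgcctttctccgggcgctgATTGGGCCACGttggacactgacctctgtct

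In the next stretches capitals mark the ERSE letters on either strand, shown for the BiP gene and for members that are described with their values below. The Hspa5 stretch is kept short because it lies inside the longer transcript that the deposited table lists.
Hspa5 (chr2:34772020-34772048, plus strand): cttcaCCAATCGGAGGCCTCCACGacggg
Calr (chr8:84847055-84847113, minus strand): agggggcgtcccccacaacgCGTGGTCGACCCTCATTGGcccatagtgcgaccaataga
Pdia6 (chr12:17266471-17266529, plus strand): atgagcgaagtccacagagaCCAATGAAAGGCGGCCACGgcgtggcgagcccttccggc
Creld2 (chr15:88819500-88819558, plus strand): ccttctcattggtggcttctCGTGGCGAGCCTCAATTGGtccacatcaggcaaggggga
Dnajc3 (chr14:118937807-118937865, plus strand): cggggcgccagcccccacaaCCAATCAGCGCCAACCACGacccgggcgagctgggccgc

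The members were expressed over a wide range. In TPM, a unit per transcript length, the main transcript of Calr averaged 447 ± 76.0 (SD, n = 5 libraries), Pdia3 389 ± 53.6, Canx 327 ± 30.3, Hsp90b1 326 ± 59.3, Phgdh 301 ± 60.02 and Hspa5 274 ± 59.7. At the other end, Ern1 averaged 1.40 ± 0.33, Trib3 6.16 ± 4.51, Cebpb 6.49 ± 5.94 and Slc7a11 6.87 ± 1.86 TPM. The highest members were thus 5 ER chaperones or isomerases and Phgdh, the first enzyme of serine synthesis, but other chaperones were far lower, with Sdf2l1 at 16.4, Hyou1 at 25.5, Dnajc3 at 28.3 and Dnajb9 at 53.4 TPM. The stress regulators Trib3 and Cebpb were low and uneven. Canx, Hsp90b1 and Phgdh differed from each other by less than the spread between libraries, as did Trib3, Cebpb and Slc7a11, whereas Pdia3 and Canx differed by more than the SD of either. In bulk RNA, fewer cells of a type and less RNA per cell cannot be told apart, here and in what follows.

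The first comparison asked whether these genes differ between the labels. No member passed. Log2(normalized count + 1) was compared with limma over all 12588 genes, and a call needed 3 things, a mean of 50 normalized counts or more, a 1.5-fold difference or more, and an adjusted p (Benjamini-Hochberg) below 0.05. limma called 0 of 39 members (background 0.00794%, 1 gene, Gm15446, which is no member), and 0 members had an unadjusted p under 0.05 (background 2.08%). edgeR on the recovered counts called 0 of 39 (background 0.0% of 12297 genes) and DESeq2 0 of 39 (background 0.0556% of 12585 genes), each with 0 members at an unadjusted p under 0.05 (background 2.11% and 3.0%). The lowest adjusted p of a member in limma was 0.934. The smallest p that an exact test of 1 gene can reach with 2 and 3 libraries is 0.1, and a p above the threshold does not show that a gene was alike under both labels.

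Most estimated differences were small, but a small estimate could be as uncertain as a large one. Examples are Cebpb (log2 fold change -0.09, SE 1.27) and Herpud1 (-0.13, SE 0.47). The median log2 fold change of the p75NTR-/- label over the WT label was 0.19 over the 39 members, 0.20 over the Atf4 arm, 0.24 over the chaperone arm and 0.10 over the sensors and Xbp1, against 0.00392 over all genes. The widest estimates were for Mthfd2 (1.01, SE 0.82), Chac1 (0.85, SE 1.2), Asns (0.62, SE 0.62), Trib3 (0.54, SE 1.06) and Ddit3 (-0.53, SE 1.11), each with an adjusted p of at least 0.934 in limma. For Chac1, Trib3 and Ddit3 the error exceeded the difference. Much of the spread lay between the libraries labelled WT. Without replicate 4 labelled WT, 19 of 39 members had an unadjusted p under 0.05 in limma (background 14.0%), and without replicate 1 labelled WT 0 did (background 1.57%), with 0 called in either case. The remaining WT library is then single and is assumed to vary like the others.

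**Figure D1:**
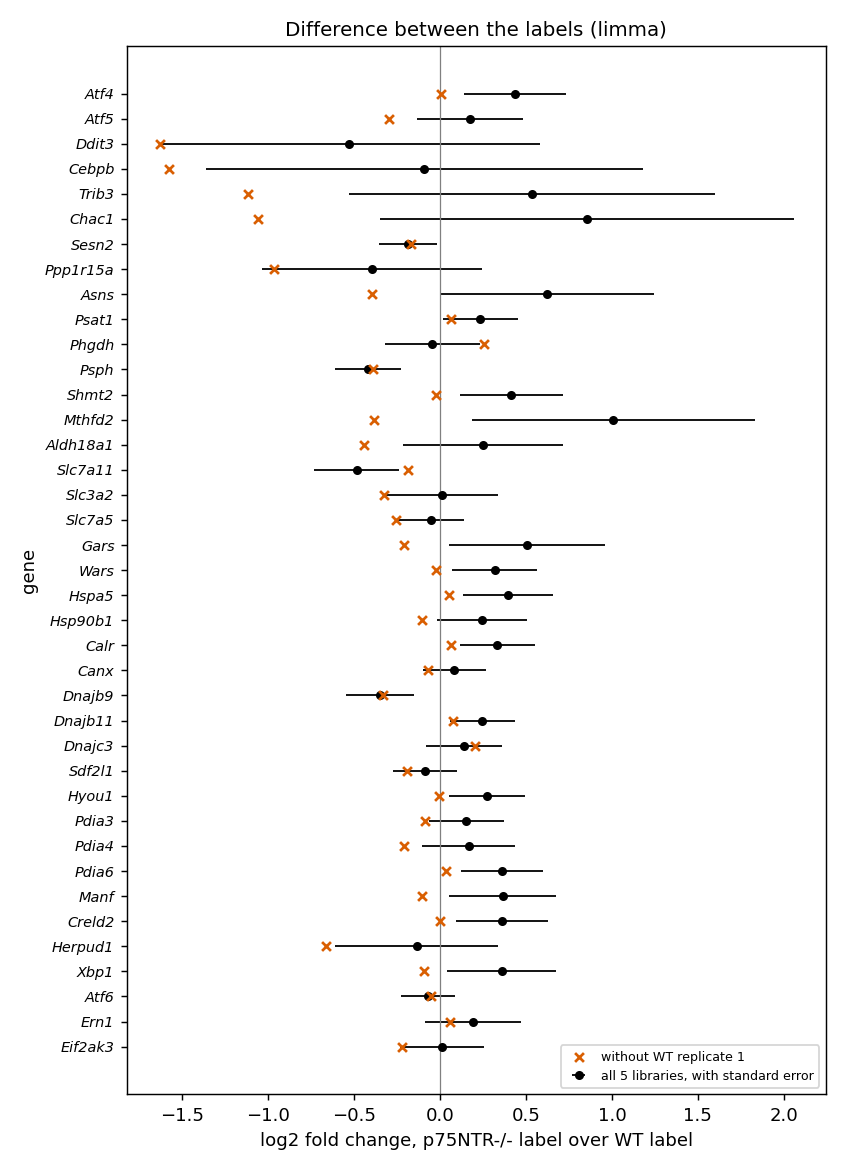
Log2 fold change of the p75NTR-/- label over the WT label (x axis) for each of the 39 members (y axis). Black points give limma's estimate from all 5 libraries with its standard error as bars, and orange crosses give the estimate without replicate 1 labelled WT, which moves Mthfd2 from 1.01 to -0.39 and Chac1 from 0.85 to -1.06.

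The values of the labels did not overlap for 5 of 39 members (12.8%, background 15.0%). Calr, a calcium-binding lectin chaperone, was above in every library labelled p75NTR-/- (1 of 39, background 7.52%), and Psph, Sesn2, Slc7a11 and Dnajb9 were below (4 of 39, background 7.53%). The share of 5 of 39 is close to that of all genes. For Calr the closest values were nearly equal, 12403 in replicate 4 labelled p75NTR-/- and 12351 in replicate 4 labelled WT. The values below stand in the order replicate 1 and replicate 4 labelled WT, then replicates 1, 2 and 4 labelled p75NTR-/-, in normalized counts summed over the listed transcripts of a gene.

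Atf4, the transcription factor that gives the arm its name (chromosome 15, 80255184 to 80257541, 3 exons in its main transcript), had 2422, 4409, 4558, 4001 and 4734 normalized counts. Its lowest value was in replicate 1 labelled WT, 1.65-fold under the next, and the other 4 libraries lay close together. Atf5, a related factor, had 284, 544, 440, 469 and 423, with the same library lowest. Both overlapped between the labels.

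Ddit3, which encodes CHOP and is raised by ATF4 in prolonged stress (chromosome 10, 127290774 to 127296288), had 359, 1662, 284, 290 and 1872 normalized counts. Cebpb, a partner of ATF4 and CHOP in leucine zipper dimers, had 5.89, 53.1, 4.95, 16.8 and 54.9, which rest on only 5 to 52 counts per library. Both genes were high in the 2 libraries numbered 4, 1 of each label, and low in the other 3. The lower library numbered 4 exceeded the highest of the others 4.63-fold for Ddit3 and 3.15-fold for Cebpb.

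The regulators that the arm induces showed a similar split. Trib3, a pseudokinase that restrains ATF4 and CHOP, had 19.6, 203, 73.2, 62.5 and 175 normalized counts. Chac1, which degrades glutathione, had 18.7, 277, 104, 87.7 and 255. In both, the libraries numbered 4 were highest and replicate 1 labelled WT was lowest, with a range of 10.3-fold for Trib3 and 14.8-fold for Chac1. Ppp1r15a, the phosphatase subunit (GADD34) that reverses eIF2alpha phosphorylation, had 493, 1089, 415, 360 and 1160, so the number 4 libraries were 2.21-fold or more above the rest and replicate 1 labelled WT was not the lowest. Sesn2, a leucine sensor of the mTORC1 pathway, had 1293, 1265, 1019, 1230 and 1138, and varied by only 1.27-fold.

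**Figure D2:**
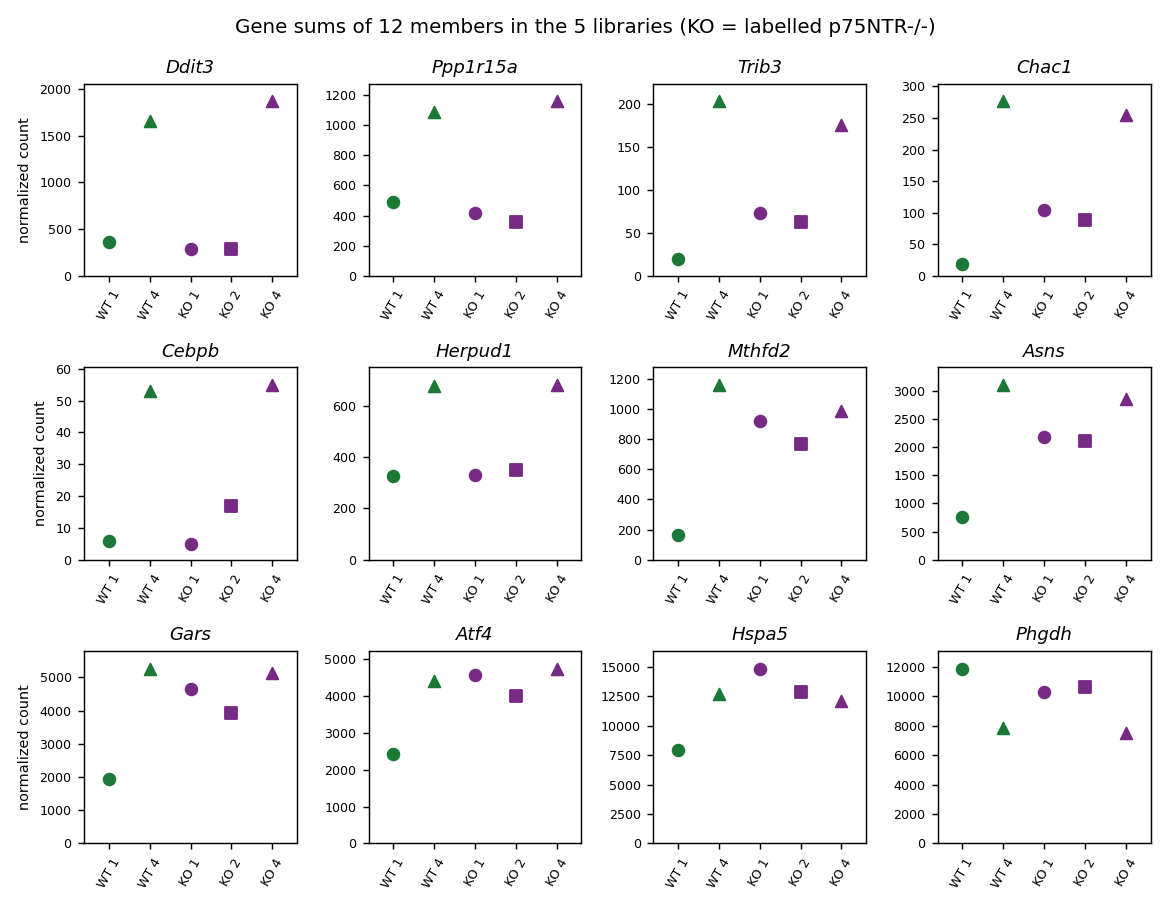
Normalized counts (y axis, from 0) of 12 members in the 5 libraries (x axis, label and replicate number, KO standing for p75NTR-/-), 1 point per library with the marker giving the replicate number. Ddit3, Ppp1r15a, Cebpb and Herpud1 are high only in the 2 libraries numbered 4, Mthfd2, Asns and Gars are low in replicate 1 labelled WT, and Phgdh is highest there with 11875.

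Among the enzymes of amino acid and one-carbon synthesis, Mthfd2, a mitochondrial folate enzyme, had 167, 1159, 922, 769 and 984 normalized counts. Asns, asparagine synthetase, had 755, 3107, 2175, 2118 and 2859. Aldh18a1, which starts proline synthesis, had 1252, 3269, 2109, 2110 and 3142. Replicate 1 labelled WT stood below the other 4 libraries by 4.61-fold for Mthfd2, 2.81-fold for Asns and 1.68-fold for Aldh18a1. Shmt2, which passes a carbon from serine to folate in mitochondria, was 1.66-fold lower there, with 1164 against 1937 to 2271.

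The 3 enzymes that make serine did not follow as a group. Phgdh had 11875, 7841, 10263, 10603 and 7537 normalized counts, highest in replicate 1 labelled WT and lowest in the libraries numbered 4. Psph, the last step, had 900, 862, 586, 631 and 772, highest under the WT label in both libraries, with a log2 fold change of -0.42 (SE 0.19, adjusted p = 0.934 in limma). Psat1, the middle step, had 4371, 5555, 6369, 6330 and 4843, lowest in replicate 1 labelled WT. The consecutive enzymes of 1 pathway therefore had different orders of the libraries.

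Of the transporters, Slc7a11, the cystine-glutamate exchanger, had 334, 219, 207, 168 and 207 normalized counts. It was highest in replicate 1 labelled WT, the opposite of most of the arm, and its log2 fold change was -0.48 (SE 0.25, adjusted p = 0.934 in limma). Slc3a2, the shared heavy chain of these carriers, had 6283, 10088, 7353, 6569 and 10748, with the libraries numbered 4 highest by 1.37-fold. Slc7a5, the large neutral amino acid carrier, had 3974, 5240, 4217, 4303 and 4684. Of the light chains that pair with Slc3a2 in the membrane, Slc7a5 was thus lowest in replicate 1 labelled WT and highest in the libraries numbered 4 like the heavy chain, and Slc7a11 was neither.

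Both tRNA synthetases among the members were lowest in replicate 1 labelled WT. Gars, which charges glycine tRNA (chromosome 6, 55038007 to 55079500), had 1942, 5256, 4661, 3926 and 5115 normalized counts, and Wars, for tryptophan, had 1135, 1815, 1771, 1726 and 1874. Replicate 1 labelled WT was 2.02-fold and 1.52-fold below the next library.

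In the chaperone arm, Hspa5, the ER Hsp70 that binds the sensors (chromosome 2, 34771970 to 34777547, 9 exons in its main transcript), had 7917, 12713, 14827, 12818 and 12067 normalized counts. Hsp90b1, the ER Hsp90, had 12685, 20650, 19298, 17588 and 20770. Calr had 8510, 12351, 13451, 12949 and 12403. Replicate 1 labelled WT was lowest in all 3, by 1.52-fold, 1.39-fold and 1.45-fold. The libraries numbered 4 were highest for Hsp90b1, by 1.07-fold, and not for Hspa5 or Calr.

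Of the remaining chaperones, Hyou1, the exchange factor for BiP, ranged from 1294 to 1997 and Dnajb11, a BiP cochaperone, from 1373 to 1956 normalized counts, both lowest in replicate 1 labelled WT. Canx, the membrane lectin chaperone, varied by only 1.26-fold, from 11301 to 14261. Dnajc3, an inhibitor of PERK and BiP cochaperone, had 917, 837, 1184, 942 and 807, lowest in the libraries numbered 4, and Sdf2l1 stayed between 121 and 154. Dnajb9, which restrains IRE1, had 768, 746, 631, 496 and 667, and was above under the WT label in both libraries (log2 fold change -0.35, SE 0.20, adjusted p = 0.934 in limma). The J-domain cochaperones of BiP therefore took 3 different orders.

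The disulfide isomerases, which form and shuffle disulfide bonds, were all lowest in replicate 1 labelled WT. Pdia6 had 2935, 4594, 4813, 4773 and 4551 normalized counts, Pdia4 ranged from 2482 to 4194 and Pdia3 from 10036 to 14050. Manf, a secreted ER stress protein, had 917, 1756, 1665, 1535 and 1706, and Creld2 had 370, 610, 633, 664 and 540, again with replicate 1 labelled WT lowest. Herpud1, which serves ER-associated degradation, had 326, 678, 330, 348 and 681. It was the only member of the chaperone arm in which the libraries numbered 4 stood 1.5-fold or more above the rest (1.95-fold), and also the only one of the 13 with a searched window that held CARE letters.

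Among the sensors, Atf6 had 559, 544, 516, 503 and 559 normalized counts, a range of 1.11-fold and the narrowest of the 39 members. Eif2ak3 (PERK) had 870, 1202, 906, 968 and 1253, highest in the libraries numbered 4 by 1.24-fold. Ern1 (IRE1) had 76.5, 92.6, 126, 97.3 and 72.9. Xbp1, whose mRNA IRE1 splices in the cytoplasm, had 209, 393, 398, 316 and 396, lowest in replicate 1 labelled WT by 1.51-fold. None of the transcripts listed for Xbp1 is the form that IRE1 makes, so splicing was not measured.

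**Figure D3:**
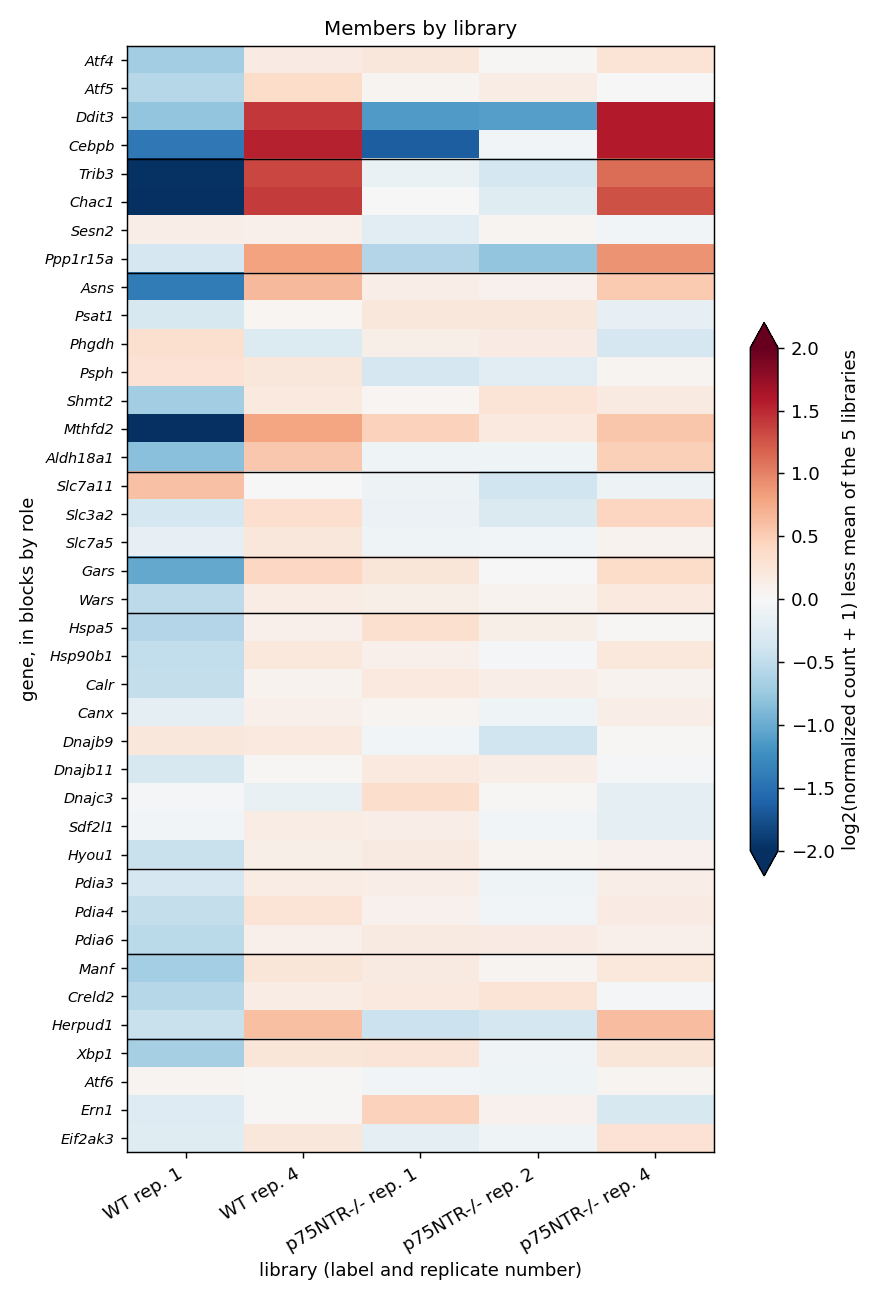
Log2(normalized count + 1) of the 39 members (rows, in blocks by role) in the 5 libraries (columns), less the mean of the 5 libraries, in blue below and red above. Replicate 1 labelled WT is the lowest library for 27 of 39 members, and Ddit3, Cebpb, Trib3, Chac1 and Ppp1r15a are darkest red in the 2 libraries numbered 4.

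These values hold a pair of library patterns that cross the labels, chosen after the values were seen and given as descriptions with no test. In the first, replicate 1 labelled WT was the lowest of the 5 libraries for 27 of 39 members (69.2%, background 31.2%), which were 13 of 20 in the Atf4 arm, 12 of 15 in the chaperone arm and 2 of 4 among the sensors and Xbp1. It stood at least 1.5-fold below all other libraries for 13 of 39 members (33.3%, background 6.45%). These were Atf4, Trib3, Chac1, Asns, Shmt2, Mthfd2, Aldh18a1, Gars and Wars in the Atf4 arm, Hspa5, Pdia6 and Manf in the chaperone arm, and Xbp1. The same library was highest for 6 members (15.4%, background 28.1%), which were Phgdh, Psph, Sesn2, Slc7a11, Dnajb9 and Atf6.

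In the second pattern, both libraries numbered 4 were above the other 3 for 18 of 39 members (46.2%, background 23.3%), 12 of 20 in the Atf4 arm and 5 of 15 in the chaperone arm. They were at least 1.5-fold above for 6 of 39 (15.4%, background 4.66%), which were Ddit3, Cebpb, Chac1, Trib3, Ppp1r15a and Herpud1. They were below the other 3 for Phgdh and Dnajc3 (5.13%, background 21.1%). The 2 libraries numbered 4 carry different labels, and all 39 members differed between them by less than 0.5 on the log2 scale, as did 92.0% of all genes.

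**Figure D4:**
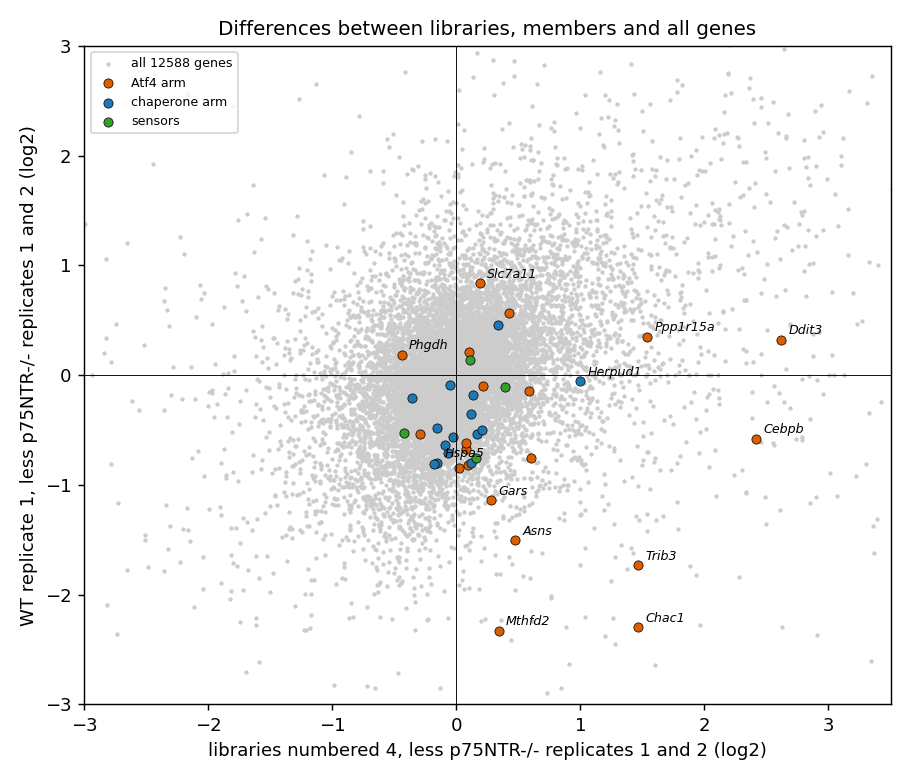
Difference in log2(normalized count + 1) from the mean of replicates 1 and 2 labelled p75NTR-/- for the mean of the libraries numbered 4 (x axis) and for replicate 1 labelled WT (y axis), with all genes in grey and the members in colour by arm. Of all genes, 128 lie outside the axes. Ddit3 (2.62) and Cebpb (2.42) lie farthest right, and Mthfd2 (-2.33) and Chac1 (-2.30) lowest among the members.

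The arms were then compared with each other in each library by the mean of log2(normalized count + 1) less the 5-library mean. The Atf4 arm stood at -0.71 and 0.52 in replicates 1 and 4 labelled WT, and at -0.14, -0.12 and 0.45 in replicates 1, 2 and 4 labelled p75NTR-/-. The chaperone arm stood at -0.36 and 0.16, and at 0.12, -0.01 and 0.09. Both arms were lowest in replicate 1 labelled WT, whereas in the libraries numbered 4 the Atf4 arm was higher and the chaperone arm lay near its level in replicate 1 labelled p75NTR-/-. The height of the Atf4 arm there was uneven. Over the mean of replicates 1 and 2 labelled p75NTR-/-, its score was 0.61 higher, but the median over its genes was 0.31. Phgdh (-0.44) and Psat1 (-0.29) were lower, and 5 of its 20 genes stood at least 1.5-fold above all other libraries.

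The difference, Atf4 arm minus chaperone arm, was -0.35 and 0.36 under the WT label and -0.26, -0.11 and 0.36 under the p75NTR-/- label. Its mean was 0.01 ± 0.50 (SD, n = 2) and -0.00449 ± 0.32 (SD, n = 3), so the labels differed by -0.01, far less than the spread between libraries of 1 label (pooled SD 0.39). Without replicate 1 labelled WT the difference between the labels was -0.37, and without replicate 4 labelled WT it was 0.35. The value between the labels thus depends on which single WT library is kept.

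**Figure D5:**
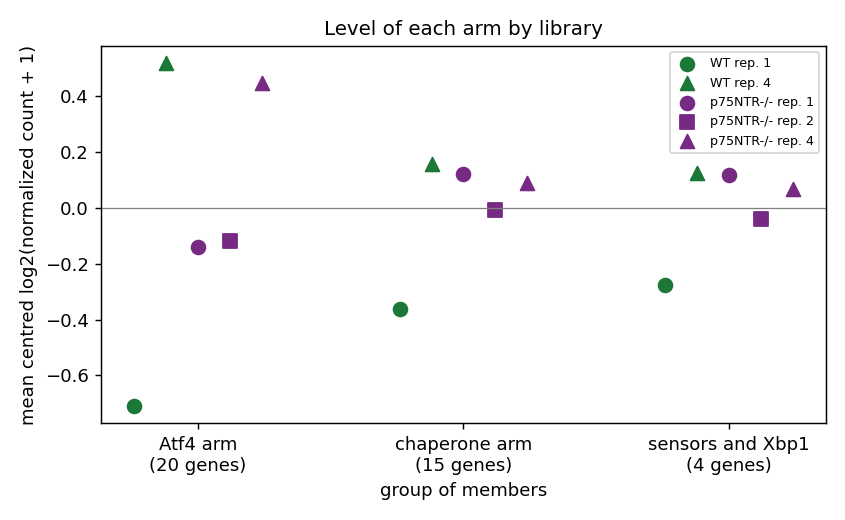
Mean over the genes of each arm of log2(normalized count + 1) less the 5-library mean (y axis) for the Atf4 arm, the chaperone arm, and the sensors with Xbp1 (x axis), 1 point per library. Replicate 1 labelled WT is lowest in each group, and the libraries numbered 4 (triangles) stand apart only in the Atf4 arm, at 0.52 and 0.45.

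The libraries numbered 4 were then set beside the promoter letters described above. For the 6 members with CARE their mean was 0.19 (Slc7a11) to 1.47 (Chac1 and Trib3) on the log2 scale above that of replicates 1 and 2 labelled p75NTR-/-. The libraries numbered 4 were highest of all for 5 of the 6, against 10 of 28 members with a window but no CARE (background 23.3%). The exception was Slc7a11, which has the letters on both strands. Of the 6 members with CARE, 5 belong to the Atf4 arm. In that arm the libraries numbered 4 were highest for 12 of 20 members, against 5 of 15 in the chaperone arm. The contrast was thus not separated from the arms, its measure was chosen after the values were seen, and it was not tested. The 7 members with ERSE lay between -0.36 and 0.17 on the same measure, and replicate 1 labelled WT was lowest for 6 of them, all but Dnajc3. That library was also lowest for 5 of the 6 members with CARE and for 17 of 27 members with a window but no ERSE (background 31.2%). Ddit3 and Cebpb, with the largest differences, had none of these letters in the windows searched. The members with a promoter but no CARE spanned -0.44 to 2.62.

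Some members have several listed transcripts, and reads that fit more than 1 were shared out by Salmon as an estimate. For Ddit3, a 105-base transcript inside the gene took 11.5% to 13.7% of the gene sum in every library, so its pattern was that of the main transcript, which had 318, 1447, 248, 251 and 1616 normalized counts. For Manf, the shorter transcript had 35.3, 505, 242, 0 and 351 and the longer one 881, 1251, 1423, 1535 and 1355. For Xbp1, the shorter transcript took 40.8%, 56.1%, 59.5%, 27.0% and 68.3% of the sum. In both genes the share of the shorter transcript varied more between libraries than the gene sum did.

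Other genes of the pathways came from lists chosen for their function, 176 genes in all besides the members. limma, edgeR and DESeq2 called 0 of the 176 between the labels (background 0.00794%, 0.0% and 0.0556%). An unadjusted p under 0.05 was reached by 1 of 176 in limma (background 2.08%), 2 in edgeR (background 2.11%) and 3 in DESeq2 (background 3.0%). Replicate 1 labelled WT was lowest for 88 of 176 (background 31.2%), and the libraries numbered 4 were highest for 57 (32.4%, background 23.3%).

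The lists differed from each other in these counts. Among the 20 other cytosolic tRNA synthetases, replicate 1 labelled WT was lowest for 19 and at least 1.5-fold lower for 11 (55.0%), and the libraries numbered 4 were highest for 12. Aars had 3495, 6470, 6060, 5959 and 6377 normalized counts and Eprs 3137, 6056, 5382, 5215 and 5770, the same order as Gars. In contrast, of 22 genes for ER-associated degradation the same library was lowest for 3 and highest for 7. Vcp, the ATPase that pulls proteins from the ER membrane, had 14046, 12621, 15105, 14425 and 12993.

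For 39 other ER folding genes replicate 1 labelled WT was lowest for 19 but at least 1.5-fold lower for only 1, and for 31 genes of translocation and signal peptide cleavage it was lowest for 20 and 1.5-fold lower for 0. Ppib, an ER proline isomerase, was highest there, with 6102, 5530, 5629, 5604 and 5857, and P4hb, a disulfide isomerase, lowest, with 6707, 8751, 7658, 7641 and 8532. Rpn2, of the oligosaccharyltransferase, had 4356, 6164, 6072, 5770 and 6199, and its partner Rpn1 ranged from 3572 in that library to 4981. Of 34 other amino acid and one-carbon genes it was lowest for 13 and highest for 8, with Gpt2, an alanine aminotransferase, at 7928, 5329, 4236, 4777 and 4881 and Aldh1l1, a folate enzyme, at 23093, 22171, 16444, 19687 and 25549. Of 19 other genes for eIF2alpha kinases and factors it was lowest for 11, with Eif2s2, the beta subunit of eIF2, at 2509, 5077, 4429, 3898 and 4804. Eif2s3x, the gamma subunit, had 4513, 6147, 3435, 3134 and 5962, with that library not lowest. Of 11 other ER stress sensors and proteases it was lowest for 3, among them Bax with 2876, 3053, 3454, 3458 and 2994, while Tmbim6, an inhibitor of Bax, was highest there with 4210 against 3229 to 3617.

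For comparison outside the ER, replicate 1 labelled WT was lowest for 9 of 11 mitochondrial chaperones and proteases and for 10 of 19 cytosolic heat shock genes. Hspd1, the mitochondrial Hsp60, had 7233, 14511, 15019, 13185 and 14463 normalized counts, and Hspa9, the mitochondrial Hsp70, ranged from 7820 in that library to 15285. Hspa8, the constitutive cytosolic Hsp70, had 34945, 33495, 57805, 49341 and 31946, and thus did not follow Hspa5, whereas Hsp90ab1, a cytosolic Hsp90, had 34381, 46472, 42775, 42422 and 47482, lowest in replicate 1 labelled WT.

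Markers of other cell types moved with the libraries. The 7 astrocyte genes summed to 43549 and 35927 in replicates 1 and 4 labelled WT, and to 23140, 26993 and 39046 in replicates 1, 2 and 4 labelled p75NTR-/-. Aldh1l1, the folate enzyme named above, makes up most of these sums. All 7 were lower under the p75NTR-/- label (median log2 fold change -0.84 in limma), with 0 called. An unadjusted p under 0.05 was reached by 4 of 6 tested in DESeq2 (background 3.0%), 1 of 7 in limma (background 2.08%) and 1 of 7 in edgeR (background 2.11%). Gfap had 241, 680, 11.9, 1.2 and 746 and Aqp4 395, 696, 69.3, 114 and 566, both highest in the libraries numbered 4, while 4 of the 7 astrocyte genes, among them S100b and Gja1, were highest in replicate 1 labelled WT. The 5 listed of 8 genes of the oligodendrocyte lineage summed to 4807, 2347, 4014, 5793 and 2376, lowest in the libraries numbered 4. The 4 listed of 8 neuronal genes did not move together. Map2, which makes up most of their sum, had 9156, 5537, 8892, 8194 and 5401, while Nefl had 12.8, 120, 28.7, 21.6 and 124, highest in the libraries numbered 4. Cd68 had 40.2, 160, 37.6, 55.3 and 227, the 1 listed endothelial gene ranged from 37.5 to 62.3 and the 3 listed fibroblast genes summed to between 94.98 and 170. Pdgfra, counted in both the fibroblast and the oligodendrocyte list, had 113, 38.5, 34.6, 72.1 and 50.7. The part of the marker genes in the patterns of the members was not tested.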

How the data were processed

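Strand-specific mRNA libraries were made by the authors from 500 ng RNA each. Per the labels, the processing used Salmon 0.10.2, DESeq2 1.22.0 and R 3.6.1 on GRCm38.p6. In the deposited signal, counts were scaled by the size factor of their library and 0.5 was added. Less 0.5, 100% of the values up to 200 counts in each library lay within 0.02 of a whole multiple of 1 step, so counts were recovered. The deposited TPM columns, held as a score because repeated lines push their sum too high, were used for levels between genes and as an alternative. The authors' own baseMean, fold change and p-value columns were not used. The design had assumed genes, but the table lists transcripts, so 22227 transcripts (303 repeated lines dropped) were summed to 12588 genes by symbol, or by identifier for 16 without one. 0 columns of per-sample values were left out.

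limma 3.58.1 was run in R 4.3.3 on log2(normalized count + 1) of all genes, a scale that understates changes of low genes, without covariates or a filter. edgeR 4.0.16 (quasi-likelihood) and DESeq2 1.42.0 were run on recovered counts as alternatives, besides other pseudocounts (0.5 and 5), a minimum mean of 50, TMM, TPM, the highest transcript, a replicate block and each library left out. The procedure was run on simulated counts with the same dispersion for all genes. Libraries of a label differed there only by depth and sampling, so the simulation does not cover the library patterns seen here. The members and lists were chosen with earlier results of these data known. All 39 members are named. Of each other list, called genes or otherwise the 2 of highest mean were named (1 is not reported here), with Ngfr as the label check and further marker genes named after their values were seen.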

Additional observations from a re-analysis of the deposited data

How the results depend on the processing

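Calls between the labels did not change for the members. 0 of the 39 members and 0 of the 176 pathway genes were called under each alternative run, and the lowest adjusted p of a member over all alternatives was 0.32. Over all genes, 1 was called, against 7 with DESeq2, 0 with edgeR, 0 with TPM, 0 with the replicate block and 0 to 1 with a library left out. Of the 39 members, 13 kept the sign of their log2 fold change in all alternatives and 26 did not. Outside the settings that leave out a library, the sign changed for Trib3 with edgeR (-0.10) and DESeq2 (-0.099). Slc3a2 changed with the highest transcript (-0.013) and Herpud1 with the replicate block (0.014). The block gives the same log2 fold changes as leaving out replicate 2 labelled p75NTR-/-, the only library of that number. With a library left out, log2 fold changes that turned sign ranged for Atf5 -0.29 to 0.64, Ddit3 -1.63 to 0.58, Trib3 -1.12 to 2.19, Asns -0.40 to 1.65, Phgdh -0.34 to 0.26, Shmt2 -0.023 to 0.85, Mthfd2 -0.39 to 2.40, Aldh18a1 -0.44 to 0.94, Chac1 -1.06 to 2.76, Slc3a2 -0.33 to 0.36, Slc7a5 -0.25 to 0.15, Cebpb -1.58 to 1.39, Gars -0.21 to 1.23, Wars -0.021 to 0.66, Ppp1r15a -0.96 to 0.18, Hsp90b1 -0.11 to 0.60, Pdia3 -0.089 to 0.40, Pdia4 -0.21 to 0.55, Canx -0.067 to 0.24, Dnajc3 -0.0069 to 0.27, Sdf2l1 -0.19 to 0.015, Manf -0.10 to 0.83, Herpud1 -0.66 to 0.39, Hyou1 -0.003 to 0.55, Xbp1 -0.10 to 0.81 and Eif2ak3 -0.22 to 0.25. The lone WT library of these fits is assumed to vary like the others. Without replicate 1 labelled WT 19 members turned sign, and without replicate 4 labelled WT 6 did. Without replicate 4 labelled WT, 19 of 39 members had an unadjusted p under 0.05 (background 14.0%), 11 of 20 in the Atf4 arm and 7 of 15 in the chaperone arm, and without replicate 1 labelled WT none did (background 1.57%).

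Members whose labels did not overlap numbered 5 (background 15.0%). With TPM there were 4 and with the highest transcript 6, and the share of all genes was not computed for either setting. With a library left out there were 6 to 33. Without replicate 4 labelled WT they were 33 of 39, against 7922 of 12588 genes (62.9%). Replicate 1 labelled WT, the lone WT library there, was the lowest of the 5 for 27 members and the highest for 6. Without replicate 1 labelled WT they were 17 of 39 (40.8% of all genes). They were 15 (46.1%) without replicate 4 labelled p75NTR-/-, 6 (19.6%) without replicate 1 and 7 (20.9%) without replicate 2. Fewer libraries overlap less often, and the share of all genes was above 15.0% in each of these settings. The arm difference was -0.02 to 0.002 over pseudocounts, TPM, the median, the filter, the highest transcript and the place of the sensors. It ranged from -0.37 to 0.35 with a library left out. With the replicate block it was 0.04, the same as without replicate 2 labelled p75NTR-/-. The labels share only the numbers 1 and 4 and do not say what a number marks. Over 10786 genes, deviations from the label means correlated by 0.26 between the libraries numbered 1 and 0.48 between those numbered 4. They also correlated by 0.48 between replicate 1 labelled WT and replicate 2 labelled p75NTR-/-. With 2 WT libraries these correlations mirror each other, and deviations cancel out within each label. The correlations are therefore tied to each other and cannot decide whether the numbers mark pairs. The main fit did not take the numbers as pairs. Counting error limits Cebpb most, with 5 to 52 counts per library, followed by Trib3 and Chac1 in replicate 1 labelled WT, with 20 and 19 counts.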
